A study of Mus musculus with 6 samples.

Results

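Pulmonary surfactant genes were examined in the lungs of mice given extracellular vesicles (EVs) before a lung-seeding cell line. The genes are 9 rows of the table of 24054 gene rows, picked by symbol for their role in making, packing or processing surfactant: Sftpa1, Sftpb, Sftpc, Sftpd, Abca3, Lamp3, Napsa, Lpcat1 and Slc34a2. All 9 passed the filter on low values (a mean of at least 1 over the 6 libraries) and were tested among 14159 genes. In one group of mice the EVs came from Tsc1-null neural progenitors (Tsc1-null EV, 3 mice), and it was set against mice whose EVs came from wild-type progenitors (WT EV, 3 mice). In both groups the hosts were female SCID mice, a strain without mature B and T cells. The EVs came from progenitors of E15.5 mouse embryos, carried CD9, CD63 and CD81, were labelled with a fluorescent dye and were given by tail vein. Rat ELT3 cells, a line used as a model of lymphangioleiomyomatosis, were injected intravenously 48 h later in all mice, and the lungs were taken after a further 72 h. Tsc1, a brake on the growth kinase mTORC1, was lacking in the cells that shed the EVs and not in the lungs, so its lung level does not check the labels. Each library is taken as 1 mouse, and lungs of mice given neither EVs nor ELT3 cells were not analysed here.

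Surfactant is a film of phospholipid and protein that lowers surface tension in the alveoli. It is made by alveolar type 2 (AT2) cells, which store it in lamellar bodies, lysosome-related organelles that fuse with the cell surface. The hydrophobic proteins SP-B and SP-C spread the lipid film, the collectins SP-A and SP-D bind microbes and lipid, and airway club cells also make SP-A, SP-B and SP-D but not SP-C. In AT2 cells these genes depend on transcription factors such as NKX2-1, FOXA2 and C/EBP alpha.

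RefSeq start-site windows (GRCm38.p6, 250 bases before to 50 after the start) were at hand for 6 of the 9 genes, and 4 are shown. Those of Sftpa1 and Sftpb stand for the surfactant proteins, that of Lamp3 for the lamellar body membrane, and that of Abca3 because the gene had the smallest p of the 9. Letters are 5′ to 3′ on the strand of the gene, and capitals mark matches to short motifs searched on both strands, CTCAAG and CACTTG for NKX2-1, TGTTTAC and TGTTTGC for FOXA factors and TTGCNNAA for C/EBP factors.
Sftpa1 (chr14:41131538-41131837, plus strand): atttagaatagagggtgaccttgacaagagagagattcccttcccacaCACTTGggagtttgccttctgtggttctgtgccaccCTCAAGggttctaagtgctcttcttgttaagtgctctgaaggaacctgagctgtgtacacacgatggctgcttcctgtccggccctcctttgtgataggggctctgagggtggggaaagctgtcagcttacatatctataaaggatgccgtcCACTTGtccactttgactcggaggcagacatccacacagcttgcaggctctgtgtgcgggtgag
Sftpb (chr6:72304360-72304659, plus strand): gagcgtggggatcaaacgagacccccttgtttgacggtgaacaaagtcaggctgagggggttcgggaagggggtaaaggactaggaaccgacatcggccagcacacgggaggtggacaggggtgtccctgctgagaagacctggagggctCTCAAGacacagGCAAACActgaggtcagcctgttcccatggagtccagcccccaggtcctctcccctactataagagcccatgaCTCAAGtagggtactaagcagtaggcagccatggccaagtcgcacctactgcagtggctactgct
Lamp3 (chr16:19706316-19706615, minus strand): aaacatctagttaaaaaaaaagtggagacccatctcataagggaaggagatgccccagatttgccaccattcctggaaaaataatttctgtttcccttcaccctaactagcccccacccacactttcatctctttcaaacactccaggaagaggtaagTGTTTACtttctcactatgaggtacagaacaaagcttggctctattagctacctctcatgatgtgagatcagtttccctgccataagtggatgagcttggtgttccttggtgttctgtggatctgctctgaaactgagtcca
Abca3 (chr17:24351773-24352072, plus strand): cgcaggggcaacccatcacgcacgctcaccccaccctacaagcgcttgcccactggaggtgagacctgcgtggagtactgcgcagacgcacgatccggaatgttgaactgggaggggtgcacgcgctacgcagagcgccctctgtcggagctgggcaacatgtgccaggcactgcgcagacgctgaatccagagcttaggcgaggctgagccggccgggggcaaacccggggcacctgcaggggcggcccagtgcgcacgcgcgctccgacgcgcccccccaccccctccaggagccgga

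The Sftpa1 window held CTCAAG at position -166 from the start and CACTTG at -202 and -14. The Sftpb window held CTCAAG at -100 and -15, with TGTTTGC on the opposite strand at -88. Lamp3 held TGTTTAC at -92. Slc34a2, whose window is not printed, held TTGCNNAA at -48, and the windows of Abca3 and Lpcat1 held none of the 5 words. Of 27025 mouse windows of the same length, 16.2% held CTCAAG, 13.5% CACTTG, 3.55% TGTTTAC, 5.04% TGTTTGC and 10.8% TTGCNNAA, so single matches are common. The windows of Abca3, Slc34a2 and Lpcat1 were rich in CG dinucleotides (29, 30 and 25), whereas those of Sftpb, Sftpa1 and Lamp3 held 8, 5 and 0, against a median of 7 over all windows.

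Values below are the authors' TMM-normalized values, counts scaled to library size, and a log2 fold compares value + 1 in Tsc1-null EV with that in WT EV lungs and carries its SE from limma, with p-values adjusted over all 14159 genes. The libraries held 5101413 to 9358820 reads in genes. Tsc1-null EV replicate 1 and WT EV replicate 2 stood apart from the other 4, with median correlations of 0.942 and 0.963 to the other libraries against 0.980 to 0.982, and with the nuclear RNA Malat1 at 30060 and 15673 against 1609 to 2819. They also had the fewest reads, 5101413 and 6565182 against 8079325 to 9358820. The ribosomal RNA Rn45s was highest in them, at 13776 and 10881 against 3293 to 6120. Results for the 9 genes are therefore also given without these 2 libraries. Over all genes limma called 0 (0%) after adjustment at the 0.05 threshold, although 930 genes had an unadjusted p below it. edgeR on the recovered reads also called 0, with 962 unadjusted, and DESeq2 called 12, none of them among the 9.

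Together the 9 genes made up 2.18, 4.37 and 3.42% of all gene reads in the 3 Tsc1-null EV libraries and 3.24, 2.58 and 2.65% in the 3 WT EV libraries. The 2 groups overlapped in this share, because Tsc1-null EV replicate 1 had the lowest of the 6 and replicates 2 and 3 had the highest. Each gene rested on many reads, from 184 for Lpcat1 in Tsc1-null EV replicate 1 to 274777 for Sftpc in Tsc1-null EV replicate 2. Divided by the length of their exons in GENCODE M21, the genes fell in the order Sftpc, Sftpb, Sftpa1, Sftpd, Slc34a2, Napsa, Lamp3, Abca3 and Lpcat1, with averages over the 6 libraries from 19732 per kb for Sftpc to 10.6 per kb for Lpcat1. The order held in all 6 libraries except for Napsa over Lamp3, which held in 5. Over all libraries the ranges overlapped between Sftpb and Sftpa1, Slc34a2 and Napsa, Napsa and Lamp3, and Abca3 and Lpcat1.

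All 9 genes averaged higher in Tsc1-null EV lungs, by a median log2 fold of 0.41, against -0.015 over all genes tested, of which 47.3% lay above 0. None of the 9 passed the test, and the smallest adjusted p was 0.721. In 2 of the 9, Abca3 and Sftpd, every Tsc1-null EV library lay above every WT EV library, and 6.86% of all genes tested did so. By limma only Abca3 had an unadjusted p under 0.05, and 3.6% of genes tested had one on the higher side. On the recovered reads edgeR gave 1 of the 9 and DESeq2 4 of the 9. Each of these had 962 genes under 0.05 in either direction, and the smallest adjusted p of the 9 by DESeq2 was 0.239. In whole lung RNA a change in the number of AT2 cells and a change in RNA per AT2 cell cannot be told apart. All 9 genes were highest in Tsc1-null EV replicate 2, whereas the lowest library was WT EV replicate 3 for 4 genes, WT EV replicate 2 for 3 and Tsc1-null EV replicate 1 for 2.

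**Figure D1:**
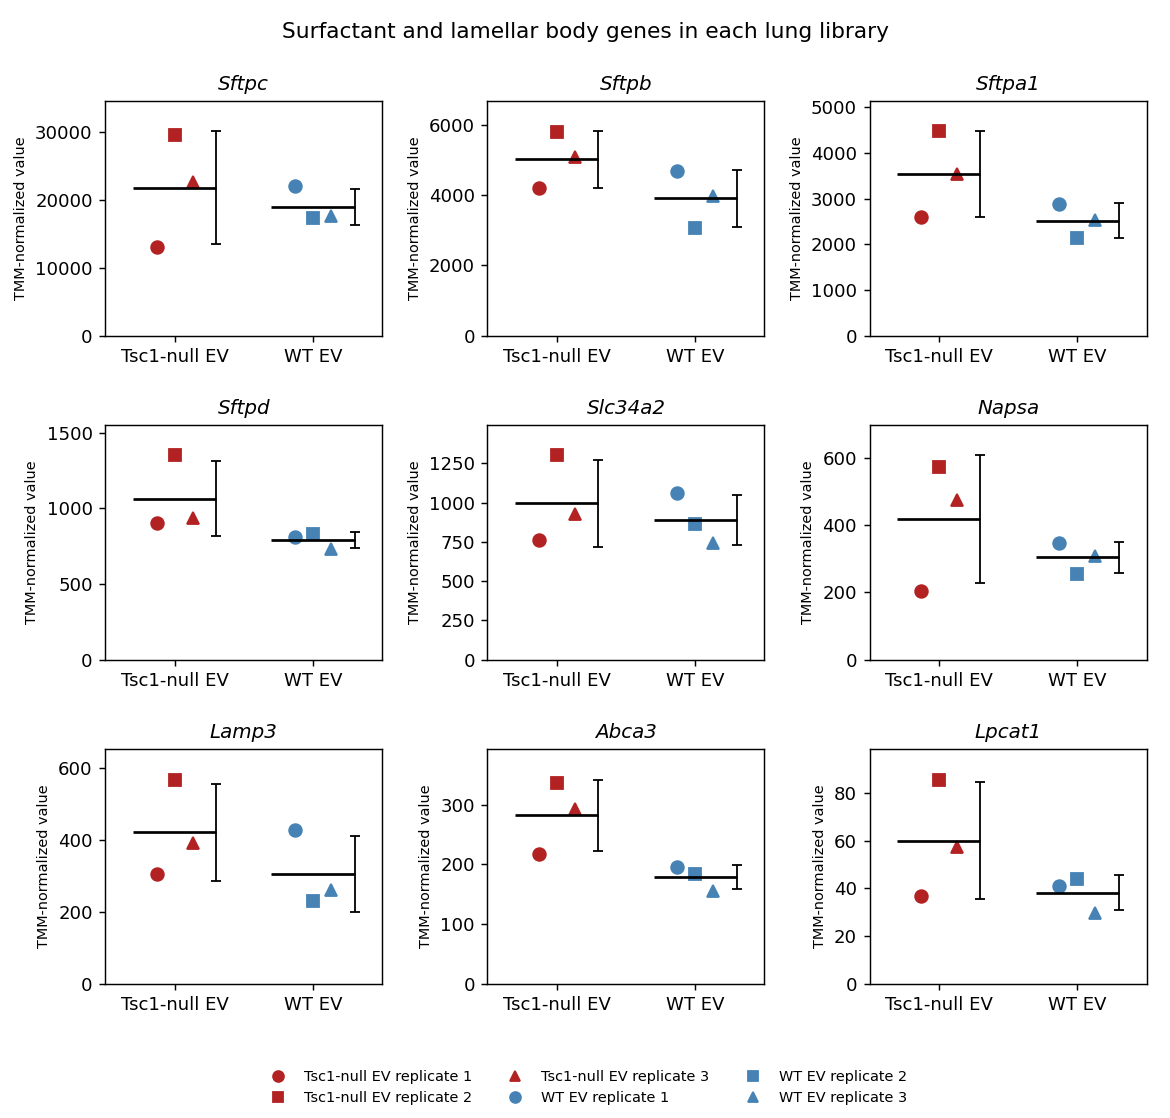
Values of the 9 genes in each library (y axes, TMM-normalized value, linear and from 0), with Tsc1-null EV on the left and WT EV on the right of each panel; bars are group means and whiskers 1 SD (n = 3 each). Tsc1-null EV replicate 2 (red square) is the highest point in every panel, and the groups are apart only for Abca3 and Sftpd.

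Of the surfactant proteins, Sftpc, the gene of the small hydrophobic SP-C found only in AT2 cells, had values of 13094, 29628 and 22698 in Tsc1-null EV lungs and of 22064, 17290.4 and 17645 in WT EV lungs. The Tsc1-null EV lungs held both the lowest and the highest library, a 2.26-fold range, against a 1.28-fold range in WT EV lungs. The log2 fold was 0.13 ± 0.48 (95% interval -0.96 to 1.22, limma adjusted p = 0.974). Sftpb encodes SP-B, without which surfactant cannot form a film and newborn mice die. It stood at 4189, 5789 and 5072 in Tsc1-null EV lungs and at 4682, 3065 and 3962 in WT EV lungs, with 2 Tsc1-null EV libraries above all WT EV libraries (log2 fold 0.37 ± 0.29, adjusted p = 0.806).

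Both collectin genes lie on chromosome 14, within a short stretch (GRCm38, GENCODE M21), Sftpa1 from 41131782 to 41136452 on the plus strand and Sftpd from 41172214 to 41185149 on the minus strand. Sftpa1, the single mouse SP-A gene, had values of 2600.3, 4472 and 3538 in Tsc1-null EV lungs and of 2886, 2128 and 2537 in WT EV lungs. Only replicate 1 of the Tsc1-null EV group lay within the WT EV range (log2 fold 0.47 ± 0.28, adjusted p = 0.748). Sftpd, whose product SP-D keeps the surfactant pool in check, stood at 905, 1349.5 and 934 in Tsc1-null EV lungs and at 808, 828 and 729 in WT EV lungs. The groups did not overlap, and Tsc1-null EV replicate 2 stood well above the other 5 libraries. The means were 1063 ± 249 in Tsc1-null EV and 788 ± 52.5 in WT EV lungs (SD, n = 3 each). The log2 fold was 0.41 ± 0.21 (95% interval -0.064 to 0.88, adjusted p = 0.721).

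The lipid genes had the highest folds. Abca3 encodes the transporter that pumps phospholipid into lamellar bodies, and its gene spans 24351950 to 24410201 of chromosome 17 (plus strand). It stood at 217, 336 and 293 in Tsc1-null EV lungs and at 196, 184 and 156 in WT EV lungs, which did not overlap. The means were 282 ± 60.2 and 179 ± 20.2 (SD, n = 3 each), a ratio of 1.58, and the log2 fold was 0.64 ± 0.19 (95% interval 0.20 to 1.08, unadjusted p = 0.00954 and adjusted p = 0.721 by limma). It ranked 145 of 14159 by p. On the opposite strand the noncoding D330041H03Rik shares 914 exonic bases with Abca3, 9.75% of its exons, and was itself at 61.5, 62.9 and 51.6 in Tsc1-null EV lungs and at 43.1, 56.9 and 66.8 in WT EV lungs. Lpcat1, the acyltransferase that remodels phosphatidylcholine into the dipalmitoyl form of surfactant, had values of 36.9, 85.6 and 57.4 in Tsc1-null EV lungs and of 40.9, 43.8 and 29.9 in WT EV lungs. Here too Tsc1-null EV replicates 2 and 3 were the 2 highest, and replicate 1 lay inside the WT EV range (log2 fold 0.58 ± 0.29, adjusted p = 0.721).

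Of the lamellar body and processing genes, Napsa varied most among the Tsc1-null EV lungs. It encodes napsin A, an aspartic protease that trims the SP-B and SP-C precursors, and had values of 206, 573 and 475 in Tsc1-null EV lungs and of 349, 256 and 310.1 in WT EV lungs. Replicate 1 was the lowest library of all and replicates 2 and 3 the highest, a 2.78-fold range within the group (log2 fold 0.34 ± 0.35, adjusted p = 0.863). The antisense transcript Gm15396 shares 18.87% of the Napsa exons, and with the use of strand not given its reads cannot be set apart.

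Lamp3, the membrane glycoprotein DC-LAMP of lamellar bodies, stood at 306, 569 and 392 in Tsc1-null EV lungs and at 427, 229.6 and 261 in WT EV lungs. One WT EV library, replicate 1, lay above 2 of the Tsc1-null EV libraries (log2 fold 0.47 ± 0.29, adjusted p = 0.760). Slc34a2, the sodium-phosphate cotransporter NaPi-2b that takes up the phosphate released from surfactant lipid, had values of 759, 1300.4 and 928 in Tsc1-null EV lungs and of 1059, 862 and 745 in WT EV lungs. The groups were interleaved (log2 fold 0.14 ± 0.24, 95% interval -0.41 to 0.70, adjusted p = 0.936).

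**Figure D2:**
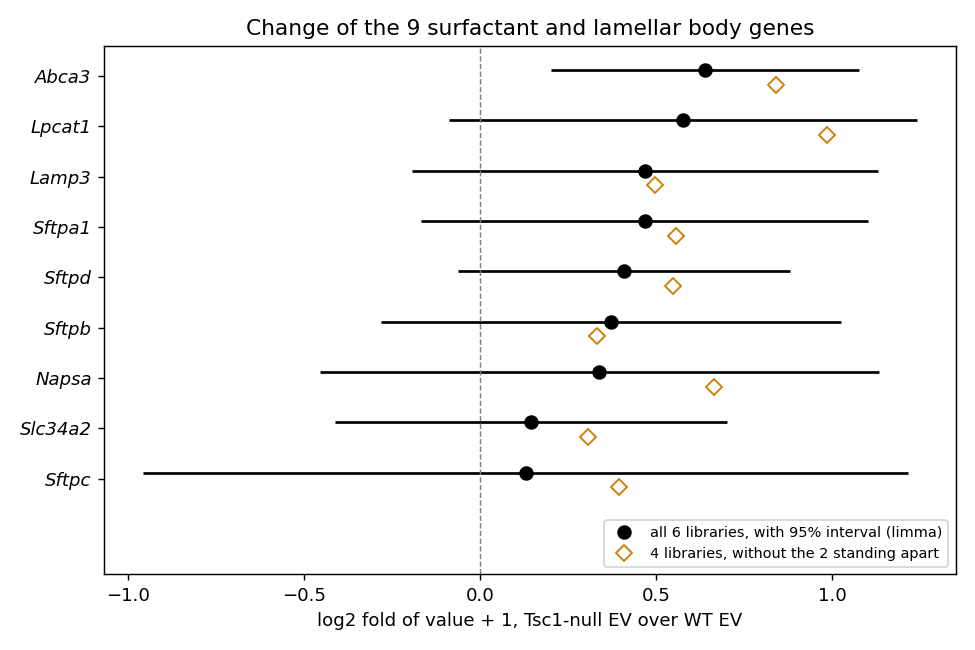
Log2 fold of the 9 genes, Tsc1-null EV over WT EV (x axis, on value + 1), from all 6 libraries with the 95% interval (filled circles, limma) and from the 4 libraries left without Tsc1-null EV replicate 1 and WT EV replicate 2 (open diamonds). All 18 points lie above 0, and only the interval of Abca3 excludes 0, before any adjustment.

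Without Tsc1-null EV replicate 1 and WT EV replicate 2, the 9 genes again all averaged higher with Tsc1-null EV, as did 49.6% of all genes tested on these 4 libraries. The median log2 fold was 0.55. In 7 of the 9 both Tsc1-null EV libraries lay above both WT EV libraries, as in 20.9% of all genes, the exceptions being Lamp3 and Slc34a2. An unadjusted p under 0.05 was found for 6 of the 9, where 5.19% of genes had one on the higher side, and none passed the adjustment (smallest adjusted p = 0.0619, while limma called 23 genes, 0.164%). The log2 folds were 0.84 for Abca3 and 0.99 for Lpcat1. Leaving out Tsc1-null EV replicate 2 instead brought Sftpc to -0.13 and Slc34a2 to -0.067, and the median of the 9 to 0.23.

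When limma weighted the libraries by their fit, 6 of the 9 passed, Abca3, Lpcat1, Sftpd, Lamp3, Napsa and Sftpa1, against 4.12% of all genes called on the higher side. Abca3 had a weighted log2 fold of 0.97 ± 0.12 (adjusted p = 0.00737), and the 6 adjusted p-values ran to 0.0316. Over all alternatives the adjusted p of Abca3 ran from 0.00737 to 0.995. The weights were 0.213, 3.95 and 0.776 for the Tsc1-null EV libraries and 0.933, 0.393 and 4.19 for the WT EV libraries, so this fit rests mostly on Tsc1-null EV replicate 2, in which all 9 were highest, and on WT EV replicate 3.

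Other AT2 genes were described for comparison. Of 19 further AT2 markers tested, 16 lay above 0 with a median of 0.24, and 3 did not overlap between the groups, all higher in Tsc1-null EV (6.86% of all genes tested). The same held for 5 of 15 pan-epithelial, 3 of 11 ciliated and 3 of 13 club cell markers. Lower without overlap were 3 of 14 endothelial, 1 of 16 AT1 and 1 of 11 fibroblast markers, against 6.22% of all genes tested. Chil1, a chitinase-like protein, stood at 757, 1111 and 766 in Tsc1-null EV lungs and at 630.5, 358 and 444 in WT EV lungs (log2 fold 0.89 ± 0.25, adjusted p = 0.721). Cxcl15, the lung chemokine lungkine, was at 1747, 2552 and 1501 in Tsc1-null EV lungs and at 1470.0, 867 and 1246 in WT EV lungs. Muc1, a membrane mucin, was at 399, 481 and 346 with Tsc1-null EV and at 338, 200.3 and 281 with WT EV. These are the 3 that did not overlap. Lyz2, the highest-expressed of the list, had a log2 fold of 0.21 ± 0.38 with overlapping libraries. The 3 markers below 0 were Il33 (-0.11 ± 0.29), Cldn18 (-0.061 ± 0.22) and Rasgrf1 (-0.0010 ± 0.31), all overlapping. As a log2 level relative to the WT EV mean, the surfactant genes stood at -0.067, 0.82 and 0.43 in the Tsc1-null EV libraries and at 0.22, -0.11 and -0.11 in the WT EV libraries. For the other AT2 markers these levels were -0.074, 0.63 and 0.31 with Tsc1-null EV and 0.20, -0.15 and -0.056 with WT EV. Both sets had their 3 highest levels in the same libraries, Tsc1-null EV replicates 2 and 3 and WT EV replicate 1.

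Among the transcription factors that act on surfactant genes in AT2 cells the libraries stood in another order. Their list had 9 of 13 members above 0 (median 0.23). Its highest level, 0.34, fell in Tsc1-null EV replicate 1, where the surfactant genes stood at -0.067, inside their WT EV range. Nkx2-1, the lung lineage factor, was at 336, 231 and 200.4 in Tsc1-null EV lungs and at 286, 194 and 225 in WT EV lungs (log2 fold 0.10 ± 0.23). Etv5, an ETS factor needed to keep AT2 identity, was at 56.9, 97.6 and 90.8 with Tsc1-null EV and at 104, 79.5 and 75.4 with WT EV. Foxa2 and Cebpa had log2 folds of 0.31 ± 0.27 and 0.24 ± 0.18, with overlapping libraries. Nr3c1, the glucocorticoid receptor, stood at 180.0, 173 and 185 in Tsc1-null EV lungs, each below the 288, 197 and 237 of the WT EV lungs (log2 fold -0.40 ± 0.17, adjusted p = 0.721), and Elf3, an epithelial ETS factor, had a log2 fold of 0.74 ± 0.30 with overlapping libraries. Stat3 stood at 205, 234 and 208 in Tsc1-null EV lungs, each above the 171, 199 and 183 of the WT EV lungs (log2 fold 0.23 ± 0.14). Of the 13 factors, 1 was lower and 1 higher without overlap. Over all genes tested, 6.22% were lower and 6.86% higher in this way.

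Lipid supply and organelle traffic genes had medians nearer 0. Of 20 genes of surfactant phospholipid synthesis 12 lay above 0 (median 0.089) and none passed. The mean level of this list was 0.044, 0.25 and 0.16 in the Tsc1-null EV libraries and -0.010, -0.0039 and 0.014 in the WT EV libraries (log2 relative to the WT EV mean), so the groups lay apart by a small margin, and this was not tested. Pcyt1a, the rate-limiting enzyme of phosphatidylcholine synthesis, had a log2 fold of -0.014 ± 0.15, and Chpt1, which adds the choline head group, one of -0.011 ± 0.22. Mfsd2a, a lysolipid transporter, stood at 4.01, 6.25 and 3.09 in Tsc1-null EV lungs, each above the 1.71, 2.79 and 2.22 of the WT EV lungs (log2 fold 0.72 ± 0.28, adjusted p = 0.721). Fabp5, a fatty acid carrier, was at 40.1, 85.3 and 63.5 in Tsc1-null EV lungs and at 48.3, 30.7 and 39.98 in WT EV lungs. Prdx6, the highest of the list and a peroxidase with phospholipase activity toward surfactant, had a log2 fold of 0.22 ± 0.22.

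Of 29 lamellar body trafficking genes 16 lay above 0, with a median of 0.0086, and none passed. Ctsh, a cathepsin that processes SP-B and SP-C, was at 274, 372 and 269.7 in Tsc1-null EV lungs and at 275, 199.7 and 229 in WT EV lungs (log2 fold 0.38 ± 0.19, adjusted p = 0.721). Hps1 and Rab3d did not overlap between the groups, 2 of 29 where 6.86% of all genes did so on the higher side, with log2 folds of 0.45 ± 0.21 and 0.26 ± 0.14. Rab38, a small GTPase needed for normal lamellar bodies, had a log2 fold of 0.15 ± 0.20. Among 12 receptors and clearance genes tested, 8 lay above 0 (median 0.12). Adgrf5, listed in the table as Gpr116, a receptor that restrains surfactant secretion and is also found on endothelium, was at 997, 739 and 1047 in Tsc1-null EV lungs and at 1013, 1188 and 1039.6 in WT EV lungs (log2 fold -0.23 ± 0.20).

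**Figure D3:**
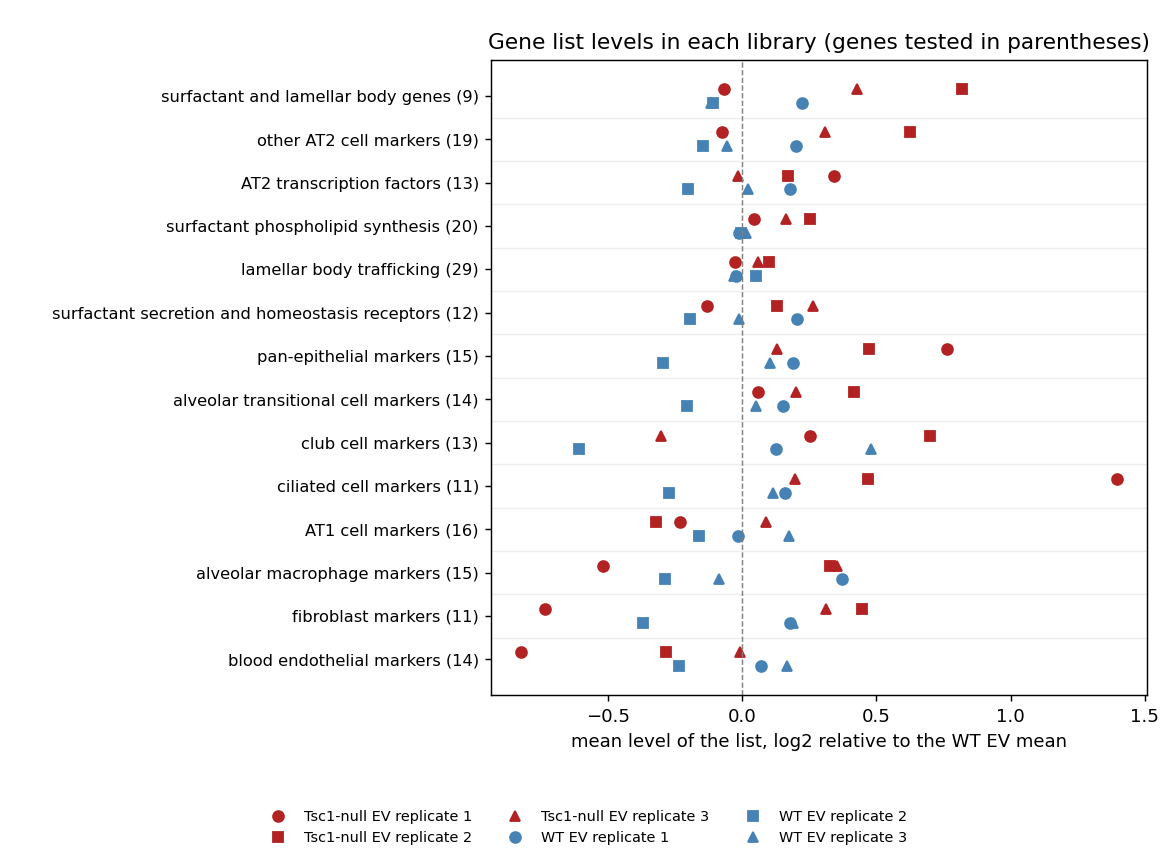
Mean level of each gene list in every library, as log2 relative to the WT EV mean (x axis); red symbols are Tsc1-null EV and blue symbols WT EV, and the number of genes tested is in parentheses. The surfactant genes and the other AT2 markers are both highest in Tsc1-null EV replicate 2, at 0.82 and 0.63, while the ciliated and pan-epithelial lists are highest in Tsc1-null EV replicate 1.

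Markers of several other lung cell types also lay mostly to one side of 0, none of them passing the test, and their part in the surfactant values was not tested. Pan-epithelial markers lay above 0 in 15 of 15 (median 0.41), with summed values of 2044 to 3039 in Tsc1-null EV libraries and 1476 to 2189 in WT EV libraries. AT1 cells, the flat gas-exchange cells that share the alveolus, had 3 of 16 markers above 0 (median -0.20), with sums of 7581 to 10621 in Tsc1-null EV and 8521 to 11913 in WT EV libraries. Ager, the highest of them, was at 1671, 2803 and 3186 in Tsc1-null EV lungs and at 2939.5, 1989 and 3873 in WT EV lungs. Club cell markers lay above 0 in 10 of 13 (median 0.38), with sums of 78704 to 118825 in Tsc1-null EV and 59563.5 to 85674 in WT EV libraries, and ciliated cell markers in 11 of 11 (median 0.64, sums 1024 to 2084 with Tsc1-null EV and 785 to 1081 with WT EV). Endothelial markers lay below 0 in 13 of 14 (median -0.36), with sums of 2953 to 5475 in Tsc1-null EV and 4589 to 6098 in WT EV libraries. Alveolar macrophage markers, from cells that clear surfactant, lay above 0 in 8 of 15 (median 0.12, sums 312 to 512 with Tsc1-null EV and 328 to 538 with WT EV). Fibroblast markers lay above 0 in 6 of 11 (median 0.042, sums 3217 to 7952 with Tsc1-null EV and 5275 to 6766 with WT EV). Every marker tested had passed the filter on low values, so none could be at 0 in all libraries. With Tsc1-null EV replicate 1 and WT EV replicate 2 left out, the surfactant genes had a median of 0.55, the pan-epithelial list 0.14, the club list 0.13, the ciliated list 0.11, the AT1 list -0.24 and the endothelial list -0.26. On the same 4 libraries the medians were 0.41 for the other AT2 markers, 0.015 for the transcription factors, 0.15 for phospholipid synthesis, 0.14 for trafficking, 0.069 for the receptors and 0.29 for alveolar macrophages.

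Markers of the transitional state between AT2 and AT1 cells lay above 0 in 10 of 14 (median 0.13), and 3 did not overlap, all higher in Tsc1-null EV, where 47.3% of all genes tested lay above 0 and 6.86% were higher without overlap. These were Lcn2 (log2 fold 1.44 ± 0.26), which is also an acute-phase gene, the cell cycle inhibitor Cdkn1a (0.51 ± 0.17) and the keratin Krt8 (0.32 ± 0.17), and none passed over all genes (adjusted p = 0.721, 0.721 and 0.726).

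A library's scaling cancels when the 9 genes are set against each other within it. Relative to the mean of the other 8 genes, Sftpc stood at -0.52, -0.19 and -0.18 (log2) in the Tsc1-null EV libraries and at 0.0012, -0.020 and 0.019 in the WT EV libraries, with the WT EV mean set to 0. Slc34a2 stood at -0.16, -0.29 and -0.40 with Tsc1-null EV and at 0.050, 0.090 and -0.14 with WT EV. In these 2 genes the log2 ratio to the other 8 did not overlap between the groups and was lower in every Tsc1-null EV library, although their own averages were higher. Abca3 stood at 0.40, 0.11 and 0.32 with Tsc1-null EV and at -0.097, 0.18 and -0.079 with WT EV, where WT EV replicate 2 overlapped the Tsc1-null EV range. The 9 ratios depend on each other, because each gene is set against the rest. How often such a ratio separates the groups over all genes was not computed, so the 2 that did are a description only. These ratios were chosen after the values were seen and were not tested.

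**Figure D4:**
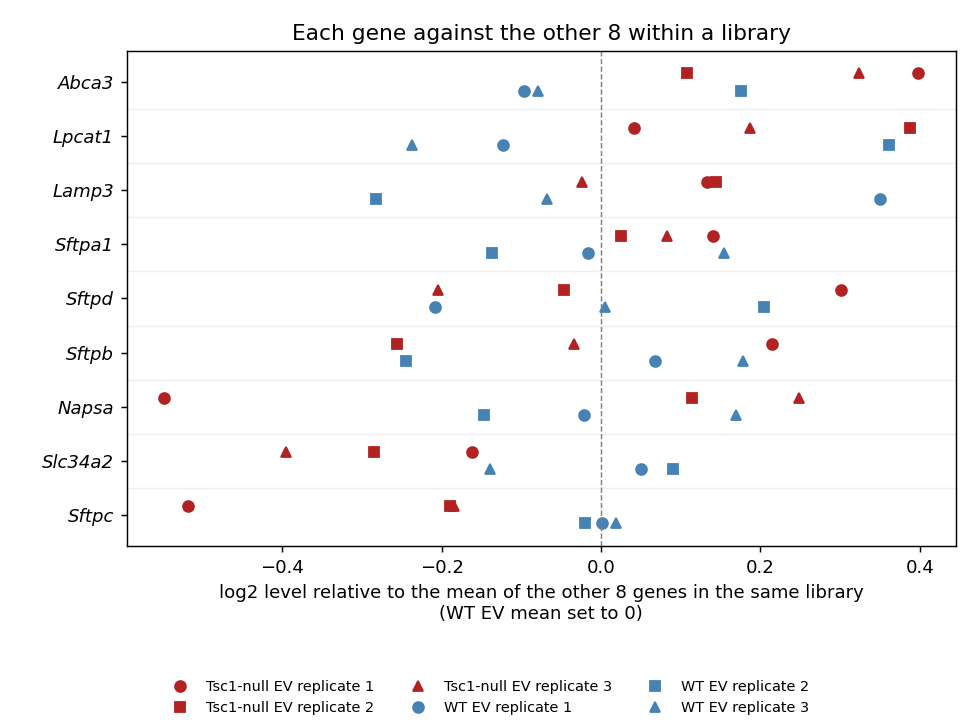
Each gene relative to the mean of the other 8 in the same library (x axis, log2, WT EV mean set to 0); red symbols are Tsc1-null EV and blue symbols WT EV. Only Sftpc and Slc34a2 separate the groups, with all red symbols left of all blue ones.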

How the data were processed

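Lung RNA of 6 mice was sequenced as paired-end reads, and the authors deposited 1 table of TMM-normalized signal, a linear scale with column totals of 964931 to 1022663. The submitters' processing notes list Bowtie2 2.1.0, RSEM 1.2.15, edgeR and build mm10 with no roles. The annotation, any filters and strand use were not given in the sources used here. Reads of the rat ELT3 cells were not separated from mouse reads. All values in each column were whole multiples of 1 step (100% within 0.001), so whole reads were recovered.

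Groups were taken from the treatment labels. Nothing in the labels states separate handling, so p-values measure the spread between these samples. Libraries of a group differed by more than sampling noise (chi-square per degree of freedom 9.21 to 58.6). Genes with a mean of at least 1 were compared as log2(value + 1) in R 4.3.3 by limma 3.58.1, two-sided with an intensity trend and Benjamini-Hochberg adjustment over all genes (threshold 0.05). This scale understates folds of low genes. Alternatives used other pseudocounts, filters, scalings, library weights, edgeR 4.0.16 and DESeq2 1.42.0 on the reads, and fewer libraries. The fit was tested on simulated data. The 9 genes and all lists were chosen with earlier results of these data known. Named from each list were up to 4 genes with the smallest p, the highest-expressed one, and some regulators and enzymes set beforehand, and not every one is reported. Stat3, Bpifa1, Il33, Cldn18 and Rasgrf1 were named afterwards, to show the other direction in their lists. The lists share Krt8, Krt18, Fasn, Scd1, Marco, Pparg and Abcg1. Cfap126 was not matched, and Erbb4, Dlk1 and Sprr1a did not pass the filter.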

Additional observations from a re-analysis of the deposited data

How the results depend on the processing

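The direction of 7 of the 9 genes held under all 19 alternatives. Sftpc and Slc34a2 turned to -0.13 and -0.067 without Tsc1-null EV replicate 2 (with 1 library left out they ranged up to 0.46 and 0.32), and the cause was not tested. The median log2 fold of the 9 stayed above 0 throughout, from 0.23 to 0.67 with 1 library left out and up to 0.74 with library weights. No gene of the 9 passed except with library weights, where 6 did. Over all genes limma called 0, against 1 with a pseudocount of 5, 12 by DESeq2, 1050 with library weights, 0 to 2 with 1 library left out and 23 without Tsc1-null EV replicate 1 and WT EV replicate 2. The 23 are from 4 libraries, and leaving out these 2 was chosen from the data. Scalings without TMM, by DESeq2 size factors or without Malat1 and Rn45s gave medians of 0.37, 0.41 and 0.38, where the median of all genes was -0.048, -0.0094 and -0.041. No paired analysis was possible because the labels give each mouse its own number and no pairing across the groups. With 3 mice a group, 95% intervals were as wide as -0.96 to 1.22 for Sftpc. Each library is taken as 1 mouse, so spread between mice cannot be told apart from spread between libraries, and the part of read depth was not tested.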

Other observations

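Among genes outside the set with a mean of at least 5, those whose log2 values over the 6 libraries were most like the mean level of the 9 surfactant genes included Tfcp2l1 (Pearson r = 0.998), Vav1 (0.987), Nradd (0.983), Hc (0.979) and Tex10 (0.978). They were picked from all such genes for this likeness over 6 libraries, so the values are a description only. Tfcp2l1, a transcription factor, stood at 32.1, 47.1 and 39.0 in Tsc1-null EV lungs and at 36.3, 30.7 and 31.2 in WT EV lungs. Hc, complement component C5, stood at 225, 404 and 333 in Tsc1-null EV lungs and at 288, 241 and 209 in WT EV lungs. Tfcp2l1 and Hc also belong to the AT2 lists above. In both the highest library was Tsc1-null EV replicate 2 and the groups overlapped.

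Among the club cell markers, of which 10 of 13 lay above 0 and 3 below, Retnla had the smallest p. This gene, which encodes the secreted protein RELM alpha, stood at 159, 319 and 57.4 in Tsc1-null EV lungs. In WT EV lungs it was at 24.3, 26.3 and 37.9, without overlap (log2 fold 2.27 ± 0.52, limma adjusted p = 0.721). Higher without overlap were 6.86% of all genes tested. Bpifa1 lay the other way, at 1.40, 154 and 13.3 with Tsc1-null EV and at 243, 10.4 and 466 with WT EV (log2 fold -2.65 ± 1.64, overlapping). Against endothelial markers in the same library, the surfactant genes stood at 0.76, 1.10 and 0.44 (log2) with Tsc1-null EV and at 0.15, 0.13 and -0.28 with WT EV. Against pan-epithelial markers they stood at -0.83, 0.35 and 0.30 with Tsc1-null EV and at 0.032, 0.19 and -0.22 with WT EV, where the groups overlapped. Against AT1 markers they stood at 0.16, 1.14 and 0.34 with Tsc1-null EV and at 0.24, 0.051 and -0.29 with WT EV, also overlapping. The ratios to the other AT2 markers, the AT2 transcription factors and the club cell markers overlapped as well. Of the ratios computed, only that to endothelial markers separated the groups. None of these ratios was tested.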
